A study of Homo sapiens with 12 samples.

Results

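Caveolae are flask-shaped pits of the plasma membrane. Their coat is built from caveolins, which are inserted in the inner leaflet, and from cavins, which are soluble proteins that assemble on the caveolin lattice. EHD2, an ATPase, sits at the neck and holds the pit at the surface, and PACSIN2, an F-BAR protein, bends membrane during caveola formation. Caveolae are abundant in flat alveolar type I cells of the lung, in endothelium, in adipocytes and in smooth muscle, and they are known for buffering membrane tension and for holding signalling receptors.

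The genes described here are the 5 caveolar coat genes CAV1, CAV2, PTRF (the symbol in the deposited table for CAVIN1), EHD2 and PACSIN2, out of 58676 genes in the table. They were chosen by the bortezomib difference of CAV1, which was large and negative, so the bortezomib values of CAV1 are given as a description with no test, and the other genes of the set were taken along as its partners in the coat. All 5 passed the filter on low values (a mean of at least 1 FPKM over the 12 libraries), which 12194 genes passed. FPKM is the number of fragments per kilobase of gene, scaled to the depth of the library.

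Transcripts were sequenced from A549 cells, a long-established line from a human lung carcinoma, grown as a control line and as 2 lines with a knockout of NFE2L1, labelled KO1 and KO2. NFE2L1 encodes a transcription factor known for restoring proteasome synthesis in cells whose proteasome is blocked. Each line received DMSO as vehicle or bortezomib, which blocks the proteasome, at a dose of 200 nM over 4 h, so there were 6 groups with 2 libraries each. How the knockouts were made, and whether each line is 1 clone, is not given in the sources used here.

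Depth was 13211608 to 23819258 reads assigned to genes per library. NFE2L1 itself had 72.7 and 151 FPKM in the 2 control vehicle libraries. The KO1 vehicle libraries had 8.45 and 14.8 FPKM of it, and those of KO2 18.6 and 33.6 FPKM. The 6 libraries whose titles end in R2 stood apart from the others: mitochondrial genes took 12.3% to 19.3% of their reads, against 5.4% to 6.8% in the libraries titled R1 (knockout lines) or with no suffix (control line). The labels do not say what the suffix marks. Values are therefore given in the order first library (R1 or no suffix), then R2. The fit across genes (limma, 1 mean per group, no block) is given beside one with the suffix as a replicate block, and a gene was called when its adjusted p was under 0.05. Epithelial markers were present (5 of 5 with a mean of at least 1 FPKM, summed level 509 to 1801 FPKM). The keratins KRT7, KRT8 and KRT18 made up most of that sum. EPCAM had 1.25 to 10.6 FPKM and CDH1 1.42 to 9.53 FPKM. Of the types rich in caveolae, alveolar type I markers summed to 0.786 to 4.18 FPKM with 1 of 5 past that level, and endothelial (0 of 5), adipocyte (0 of 3) and smooth muscle markers (0 of 3) each summed to under 0.3 FPKM in every library; of the adipocyte list, ADIPOQ and LEP were at 0 in all libraries. Fibroblast markers summed to 1.95 to 24.2 FPKM, with COL1A1 as the 1 of 5 past that level.

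CAV1 (ENSG00000105974) lies on chromosome 7 at 116524785 to 116561184 and CAV2 (ENSG00000105971) at 116287380 to 116508541, both on the plus strand of GRCh38. PTRF (ENSG00000177469) is on chromosome 17 at 42402452 to 42423517, minus strand. EHD2 (ENSG00000024422) is on chromosome 19 at 47713343 to 47743134, plus strand, and PACSIN2 (ENSG00000100266) is on chromosome 22 at 42835412 to 43015145, minus strand. All are protein-coding, and the values count reads over the whole gene.

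The start regions of a gene that was lower after bortezomib (EHD2) and of the one that was higher (PACSIN2) are shown, with short stretches from CAV1 and CAV2, the genes with the lowest values after bortezomib relative to vehicle. The sequences are from RefSeq (GRCh38.p14), whose table held 4 of the 5 genes, and they were searched on both strands for 6 motifs in the 250 bases before the start. Capitals mark GGGCGG, the box bound by SP1, or its reverse complement CCGCCC. For CAV1 and CAV2 the window overlaps first exons of longer annotated transcripts (224 and 250 of its bases), so 30 bases around matches are shown; for EHD2 the 171 bases outside annotated exons are shown, and for PACSIN2 all 250.
CAV1, chr7:116524817-116524846, plus strand: tgcgggcgctccCCGCCCtctgctgccaga
CAV1, chr7:116524905-116524934, plus strand: caaacctttggcGGGCGGccaggaggctcc
CAV2, chr7:116499559-116499588, plus strand: ggcgggggaggtGGGCGGggagGGGCGGcg
EHD2, chr19:47713172-47713342, plus strand: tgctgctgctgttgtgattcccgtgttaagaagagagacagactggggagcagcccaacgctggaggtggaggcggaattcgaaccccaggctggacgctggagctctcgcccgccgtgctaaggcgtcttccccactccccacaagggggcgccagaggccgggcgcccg
PACSIN2, chr22:43015150-43015399, minus strand: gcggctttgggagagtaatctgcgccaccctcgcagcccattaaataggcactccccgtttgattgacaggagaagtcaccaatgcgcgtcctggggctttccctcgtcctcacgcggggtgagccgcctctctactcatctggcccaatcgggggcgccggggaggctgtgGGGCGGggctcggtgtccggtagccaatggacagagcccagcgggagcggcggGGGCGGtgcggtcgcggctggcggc

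The whole 250-base windows held 3 such boxes in CAV1, 6 in CAV2, 1 in EHD2 and 2 in PACSIN2, and 42.6% of all 35116 windows of that length held at least 1. The CAV2 window was 83.2% G and C and the CAV1 window 63.6%, against a median of 58% over all windows. None of these 4 windows held the antioxidant response core TGACNNNGC (in 10.9% of all windows), the TEAD motif GGAATG (11.9%), the heat shock element GAANNTTC (5.78%), the AP-1 motif TGANTCA (6.57%) or the C/EBP-ATF composite TGATGCAA (0.772%). Matches did not overlap one another in the sequences shown. RefSeq gives PACSIN2 5 other starts further inside the gene: 4 of those windows held GGAATG, and 3 that overlap one another held the same GAANNTTC match. RefSeq also gives other starts for the caveolins. Their windows held 3 and 2 boxes in CAV1 (63.2% and 73.2% G and C) and 3 in CAV2 (70.0%). These windows held no match to the other motifs. A match or its absence is a description of the letters only.

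With vehicle, CAV1 and PTRF were the most abundant of the 5, followed by EHD2, with CAV2 and PACSIN2 lowest. CAV1 ranged from 155.8 to 269.4 FPKM over the 6 vehicle libraries and reached rank 68 among all genes in the second control library. PTRF ranged from 60.2 to 268.6 FPKM, so its range contained most of that of CAV1 and the order of these 2 was not fixed. EHD2 (20.03 to 85.0 FPKM) overlapped CAV2 (21.4 to 30.9 FPKM) and PACSIN2 (10.1 to 26.2 FPKM). The spread of PTRF, EHD2 and PACSIN2 was largely that between the first and the R2 library of each group: R2 was lower in 6 of 6 groups, at 0.229 to 0.454 times its partner for PTRF, 0.297 to 0.629 times for EHD2 and 0.430 to 0.640 times for PACSIN2. The caveolins were not lower in R2 in every group, with ratios of 0.583 to 1.73 for CAV1 (lower in 4 of 6 groups) and 0.582 to 1.21 for CAV2 (lower in 5 of 6). Their lowest ratios were in the knockout bortezomib groups (CAV1 0.687 in KO1 and 0.583 in KO2, CAV2 0.628 and 0.582), close to those of EHD2 there (0.622 and 0.629). What made the R2 libraries differ was not tested.

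**Figure D1:**
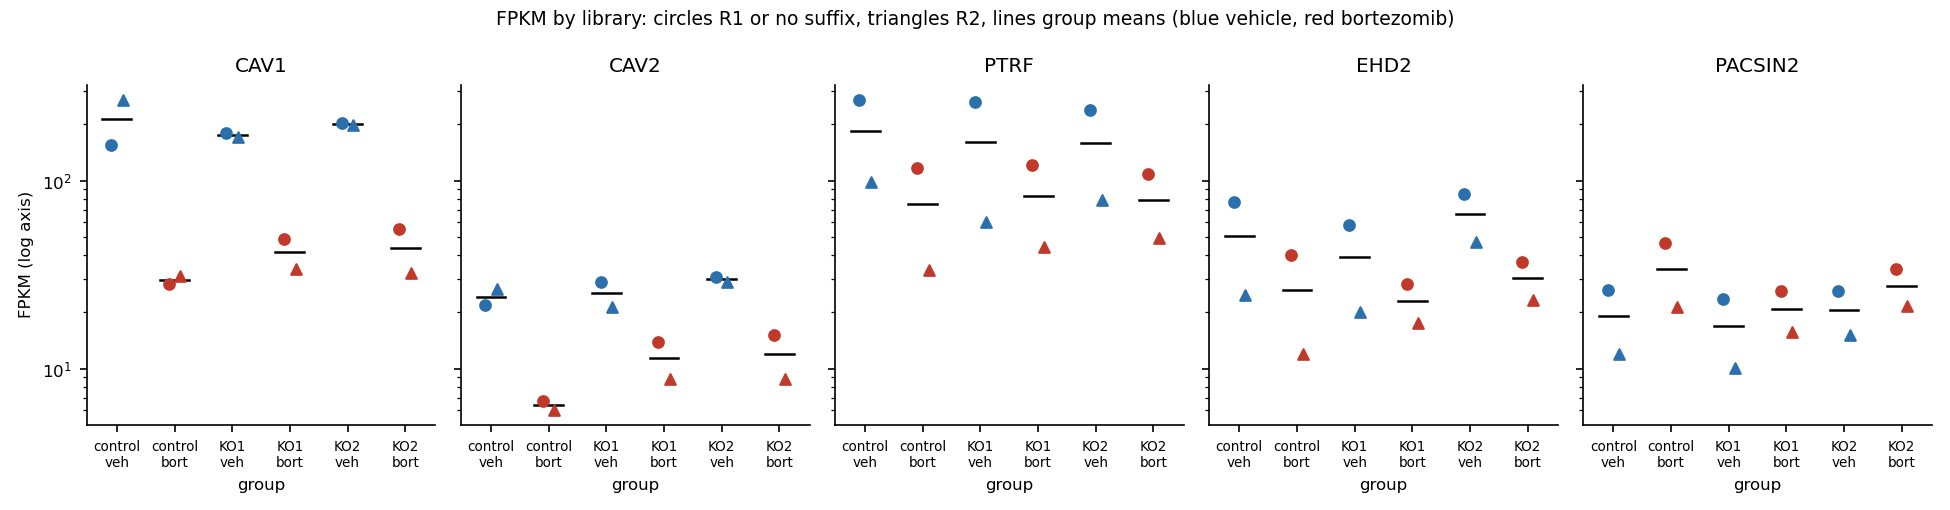
FPKM of the 5 genes in each of the 12 libraries on a log axis, with circles for the R1 or unnumbered library, triangles for R2 and lines at the group means. The 6 bortezomib libraries sit below the 6 vehicle libraries for CAV1 and CAV2, while for PTRF, EHD2 and PACSIN2 the circles sit above the triangles in every group.

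The first comparison asked what 4 h of bortezomib did to the coat genes in each line. CAV1, the scaffold protein of caveolae, had 155.8 and 269.4 FPKM in control cells with vehicle and 28.1 and 31.2 FPKM with bortezomib. In KO1 it had 179.3 and 171.7 FPKM with vehicle and 49.2 and 33.8 FPKM with bortezomib. In KO2 the values were 203.5 and 197.6 FPKM, then 55.2 and 32.2 FPKM. All 6 bortezomib libraries were below all 6 vehicle libraries. Within suffix pairs 18.1% and 11.6% of the vehicle level remained in control cells, with 27.5% and 19.7% left in KO1 and 27.1% and 16.3% left in KO2. The difference on the log2(FPKM + 1) scale, where low genes appear to change less than they do, was -2.75 (SE 0.45) in control cells, -2.08 in KO1 and -2.22 in KO2. These values chose the gene and carry no test. FPKM is a share of each library's reads, so fewer cells with the transcript and less transcript per cell cannot be told apart.

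Sums over marker lists of other cell types also moved with bortezomib, at low levels and each mostly through 1 gene. The alveolar type I list summed to 1.48 to 4.18 FPKM over the 6 vehicle libraries and 0.786 to 1.74 FPKM over the 6 bortezomib libraries, nearly all of it AGER, and PDPN had a median of 0. The alveolar type II list (1 of 6 past the filter, ABCA3, with SFTPA1 at 0 in every library) summed to 10.6 to 29.3 and 4.17 to 11.5 FPKM, and the leukocyte list (1 of 4, CD14) to 0.730 to 3.63 and 0 to 0.815 FPKM. The fibroblast list was higher with bortezomib, at 1.95 to 5.84 and 6.20 to 24.2 FPKM, and COL1A1 made up most of it. Some members under the filter went against the sum of their list. LUM of the fibroblast list was lower with bortezomib in KO1 (0.575 and 1.40 FPKM, then 0.377 and 0.440) and KO2 (0.401 and 0.863, then 0.221 and 0.512). LAMP3 of the alveolar type II list was higher in every suffix pair, as in KO1 (0.151 and 0.212 FPKM, then 0.377 and 0.778). Of the epithelial list, EPCAM and KRT7 were higher and CDH1 lower with bortezomib in every suffix pair, while KRT8 and KRT18 varied. Of all tested genes, 24.8% were higher and 23.8% lower in every suffix pair. The part of these markers in the CAV1 values was not tested.

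CAV2, which forms hetero-oligomers with CAV1 and needs it to reach the cell surface, had 21.8 and 26.4 FPKM in control vehicle libraries and 6.72 and 6.05 FPKM with bortezomib. In KO1 it had 28.9 and 21.4 FPKM, then 13.9 and 8.74 FPKM. In KO2 it had 30.9 and 28.8 FPKM, then 15.1 and 8.82 FPKM. As for CAV1, no bortezomib library reached any vehicle library, a separation shown by 5.4% of the tested genes. Per line, both bortezomib libraries lay below both vehicle libraries for CAV1 and CAV2 in all 3 lines and for EHD2 in KO2 as well, against 17.4% (control), 16.1% (KO1) and 19.2% (KO2) of tested genes. The CAV2 difference was -1.76 in control cells (SE 0.37, limma adjusted p = 0.0811; with the replicate block SE 0.18, adjusted p = 0.000283). It was -1.10 in KO1 (adjusted p = 0.332; 0.00284 with the block) and -1.29 in KO2 (0.218; 0.00131 with the block).

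PTRF, the cavin without which caveolae do not form, had 268.6 and 98.7 FPKM in control vehicle libraries and 117.6 and 33.4 FPKM with bortezomib. In KO1 it had 263.3 and 60.2 FPKM, then 121.9 and 44.3 FPKM. In KO2 it had 237.1 and 79.2 FPKM, then 108.9 and 49.4 FPKM. Each bortezomib library was below its suffix partner, but the groups overlapped because the first bortezomib library was above the R2 vehicle library in every line. The level remaining was 43.8% and 33.8% in control cells, 46.3% and 73.5% in KO1 cells, and 45.9% and 62.4% in KO2 cells. The log2 difference was -1.36 (SE 0.96), -0.77 and -0.89, in control, KO1 and KO2. Limma adjusted p was 0.676, 0.923 and 0.92; the block brought it to 0.00228, 0.0302 and 0.0183.

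EHD2, the neck ATPase, had 76.8 and 24.6 FPKM in control vehicle libraries and 40.3 and 11.99 FPKM with bortezomib. In KO1 it had 58.0 and 20.03 FPKM, then 28.1 and 17.5 FPKM, and in KO2 85.0 and 47.4 FPKM, then 37.0 and 23.3 FPKM. All 6 pairs were lower with bortezomib, and the KO1 R2 pair was closest to no difference, with 87.2% of the vehicle level remaining against 43.6% to 52.5% in the other 5 pairs. The log2 difference was -0.95 in control cells (limma adjusted p = 0.729; 0.00861 with the block), -0.60 in KO1 (0.923; 0.0563) and -1.09 in KO2 (0.785; 0.00593).

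PACSIN2 was the only one of the 5 with higher values. It had 26.2 and 11.9 FPKM in control vehicle libraries and 46.5 and 21.3 FPKM with bortezomib, which is 177% and 179% of the vehicle level. In KO1 it had 23.5 and 10.1 FPKM, then 25.98 and 15.7 FPKM (111% and 156%), and in KO2 25.9 and 15.1 FPKM, then 33.7 and 21.6 FPKM (130% and 143%). All 6 pairs were higher, and within each line the R2 bortezomib library stayed below the first vehicle library, so the groups overlapped. The log2 difference was 0.80 in control cells (limma adjusted p = 0.691; 0.0055 with the block), 0.37 in KO1 (0.947; 0.112) and 0.43 in KO2 (0.951; 0.0747). PACSIN2 overlaps ARFGAP3 on the same strand, which had at most 589 reads in a library against at least 852 for PACSIN2.

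Apart from CAV1, 0 of the 4 genes were called without the block in any line, where 0.467% (control), 0.238% (KO1) and 0.32% (KO2) of tested genes were called. With the block, CAV2, PTRF and EHD2 fell and PACSIN2 rose in control cells, where 16.4% of tested genes fell and 16.1% rose. In KO1, CAV2 and PTRF fell (13.8% of tested genes fell, 13.9% rose). In KO2, CAV2, PTRF and EHD2 fell (14.4% fell, 12.7% rose). CAV1, CAV2, PTRF and EHD2 were lower in all 6 suffix pairs, as were 23.8% of tested genes, and PACSIN2 was higher in all 6, as were 24.8%. The choice of the set rests on this contrast for CAV1, so nothing is read from these shares. The median log2 difference of the 5 was -1.36, -0.77 and -1.09 in control, KO1 and KO2, beside -0.01, 0.00 and -0.02 over all tested genes.

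**Figure D2:**
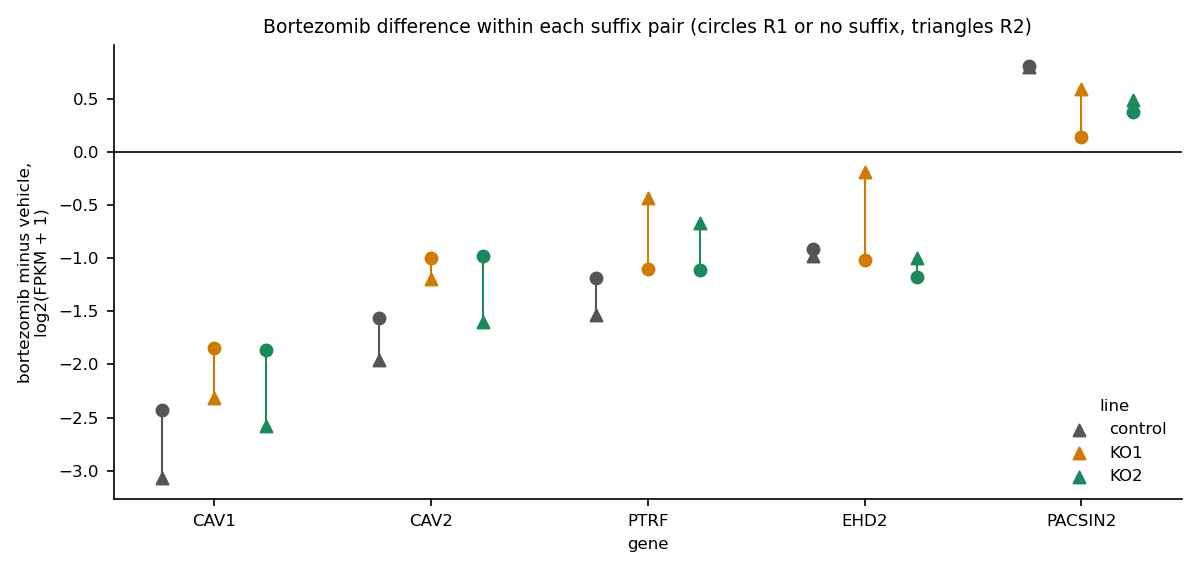
Bortezomib minus vehicle on the log2(FPKM + 1) scale within each suffix pair, for each gene and line, with circles for R1 or unnumbered pairs and triangles for R2 pairs. CAV1, CAV2, PTRF and EHD2 are below 0 in all 6 pairs and PACSIN2 is above 0 in all 6.

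Because each library gives all 5 genes, the make-up of the coat transcripts can be followed within a library. Per length, there was 7.13 and 10.2 times as much CAV1 as CAV2 in control vehicle libraries and 4.18 and 5.15 times as much with bortezomib. In KO1 the ratio went from 6.21 and 8.03 to 3.53 and 3.87, and in KO2 from 6.59 and 6.86 to 3.65 and 3.65. All 6 bortezomib ratios were thus below all 6 vehicle ratios, which follows CAV1 as the gene chosen for its fall. EHD2 exceeded PACSIN2 in every vehicle library (1.99 to 3.29 times) and the ratio was 0.563 to 1.11 with bortezomib, also with no overlap. The PTRF to EHD2 ratio did not separate: it was 3.49 and 4.01 in control vehicle and 2.92 and 2.78 in control bortezomib libraries, and 4.54 and 3.01 in KO1 vehicle and 4.34 and 2.53 in KO1 bortezomib libraries. In KO2 it went the other way, from 2.79 and 1.67 to 2.94 and 2.12.

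The second comparison asked whether loss of NFE2L1 changed the coat genes. None of the 5 passed the threshold in any knockout contrast, without the block or with the suffix block. With the block these contrasts lean on the R2 libraries, the only suffix that all 3 lines have. In vehicle, CAV1 was at 115% of the control level in the first KO1 library and at 63.7% in R2, and at 131% and 73.4% in KO2, so the direction differed between the suffixes. The fitted CAV1 difference with the block was -0.63 in KO1 (95% interval -1.22 to -0.04, limma adjusted p = 0.2) and -0.44 in KO2 (-1.03 to 0.15, adjusted p = 0.403). Without the block it was -0.22 and -0.03. These contrasts share the control vehicle libraries with the contrast that chose CAV1.

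CAV2 in KO1 vehicle was at 132% of control in the first pair and 81.1% in R2, and the fitted difference was 0.05 without the block and -0.21 with it (95% interval -0.69 to 0.26), so its direction turned with the fit. In KO2 it was 0.30 without the block and 0.04 with it (-0.43 to 0.51). For PTRF the differences with the block were -0.34 (-0.92 to 0.24) in KO1 and -0.22 (-0.81 to 0.36) in KO2, beside -0.37 and -0.25 without it. For PACSIN2 they were -0.18 and 0.15 without the block and, with it, -0.04 (-0.46 to 0.38) and 0.30 (-0.12 to 0.71). EHD2 was the gene on which the 2 knockout lines were furthest apart: with 76.8 and 24.6 FPKM in control vehicle libraries, it had 58.0 and 20.03 FPKM in KO1 and 85.0 and 47.4 FPKM in KO2. Both KO1 pairs were below control (75.5% and 81.4%) and both KO2 pairs above it (111% and 193%). The difference from control without the block was -0.34 in KO1 and 0.53 in KO2. With the block it turned to 0.02 in KO1 (-0.52 to 0.57) and was 0.90 in KO2 (0.35 to 1.44, limma adjusted p = 0.0736). KO1 against KO2 in vehicle gave -0.87 for EHD2 (adjusted p = 1 without the block and 0.0613 with it). In an alternative that weights recovered reads (limma's voom, with the block), EHD2 was called higher in KO2 than in control (0.80, adjusted p = 0.0237) and lower in KO1 than in KO2 (-0.85, adjusted p = 0.00855). That fit called more genes: 1173 and 786 of the 12194 tested genes in these contrasts, in either direction. The share of tested genes called in vehicle was 0.213% (KO1), 0.23% (KO2) and 0.0656% (KO1 against KO2) when no block was used; the block made these shares 5.95%, 4.91% and 3%.

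In the bortezomib libraries the knockout lines had higher CAV2 than the control line in both suffix pairs, at 207% and 145% of the control level in KO1 and 225% and 146% in KO2. The fitted difference was 0.71 in KO1 and 0.77 in KO2 without the block. With it the difference was 0.45 in KO1 (95% interval -0.03 to 0.92, limma adjusted p = 0.238) and 0.51 in KO2 (0.04 to 0.98, adjusted p = 0.216), so neither passed. CAV1 was also higher in all 4 pairs (175% and 108% in KO1, 196% and 103% in KO2), with fitted differences of 0.45 and 0.50 without the block and of 0.04 (-0.55 to 0.63) and 0.09 (-0.50 to 0.68) with it. Low control bortezomib values were part of what chose CAV1, so its direction in these contrasts is a description only. PACSIN2 was lower in KO1 in both pairs, at 55.9% and 73.8% of control, with a difference of -0.47 with the block (-0.89 to -0.06, adjusted p = 0.16). It was called (-0.62, limma adjusted p = 0.038) when the unnumbered control libraries were put on the level of R1 in the block, where 6.54% of tested genes were called lower. PACSIN2 was also called with voom and the suffix block (-0.56, adjusted p = 0.0464), where 1770 of 12194 tested genes were called in either direction. EHD2 in KO2 was at 91.9% of control in the first pair and 194% in R2, so the pairs went opposite ways. Its difference was 0.39 without the block and 0.76 with it (0.21 to 1.30, limma adjusted p = 0.121). It passed in voom with the block (0.73, adjusted p = 0.034), where 1251 of 12194 tested genes were called in either direction. EHD2 in KO1 was at 69.7% and 146% of control. PTRF differed by 0.25 in each knockout line (-0.34 to 0.83 in both). Without the block 0.107% (KO1) and 0.0656% (KO2) of tested genes were called in these contrasts, and 7.54% and 4.81% with it.

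**Figure D3:**
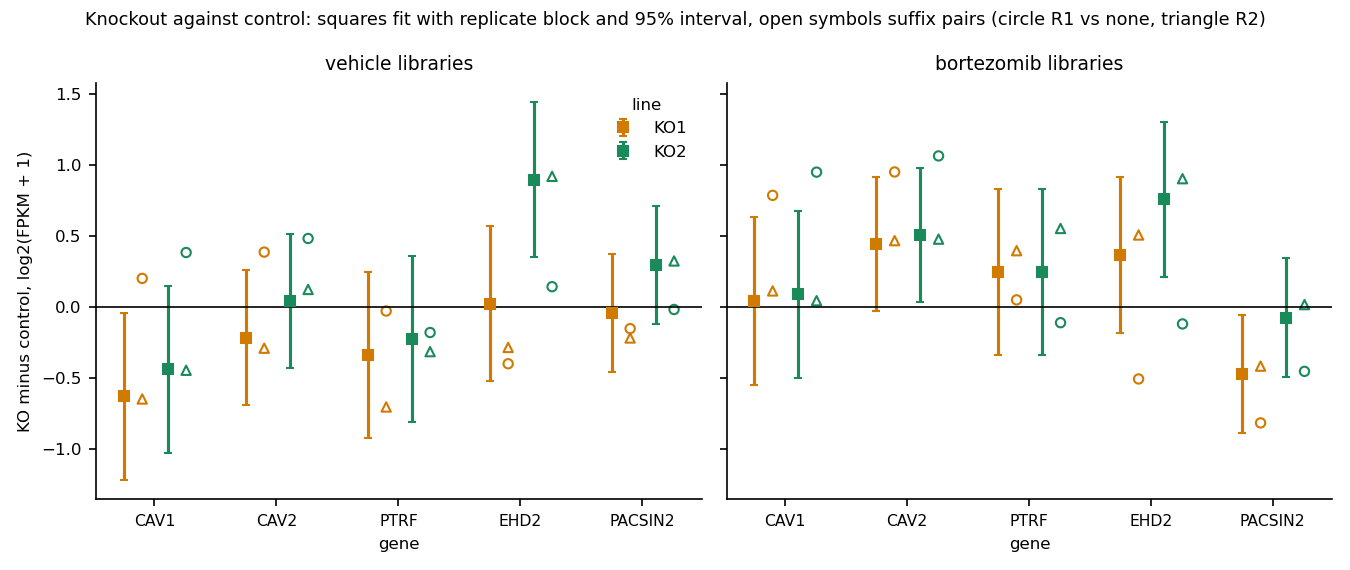
Knockout minus control on the log2(FPKM + 1) scale for the 5 genes, in vehicle (left) and bortezomib (right), with squares and bars for the fit with the replicate block and its 95% interval and open symbols for the suffix pairs. The EHD2 interval of KO2 lies above 0 in both panels (0.35 to 1.44 and 0.21 to 1.30), and circles and triangles of CAV1 lie on opposite sides of 0 in vehicle. Neither EHD2 contrast of KO2 passed with the block (limma adjusted p = 0.0736 and 0.121). Its circle lies at 0.14 in vehicle and at -0.12 in bortezomib.

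The interaction asked whether the bortezomib difference itself differed between the knockout lines and the control line (mean of both knockout lines minus the control line). It was 0.56 for CAV2 (95% interval 0.07 to 1.06 with the block, limma adjusted p = 0.396), 0.53 for PTRF (-0.08 to 1.14, adjusted p = 0.531), 0.10 for EHD2 (-0.47 to 0.67, adjusted p = 0.92) and -0.40 for PACSIN2 (-0.84 to 0.04, adjusted p = 0.503). For CAV1 it was 0.60 (-0.01 to 1.21), given with no test since its control difference chose it. None of the 4 tested was called, and 0% of tested genes were called in the interaction with or without the block.

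CAV1 and CAV2 are neighbours, so the other genes around them were read from the same libraries. Of 31 genes within 500 kb of either, 6 passed the filter on low values, and all 6 are on the plus strand: TES, CAV2, CAV1, MET, CAPZA2 and ST7. TES, a focal adhesion protein whose gene lies next to CAV2 on its other side, had 16.7 and 15.4 FPKM in control vehicle libraries and 31.6 and 34.1 FPKM with bortezomib. In KO1 it had 15.7 and 9.29 FPKM, then 37.2 and 27.3 FPKM, and in KO2 22.0 and 14.2 FPKM, then 51.7 and 38.8 FPKM. All 6 bortezomib libraries were above all 6 vehicle libraries. The share of tested genes with this upward separation was not counted, and 24.8% of them were higher in all 6 suffix pairs. With the block TES rose by 0.99 in control cells (limma adjusted p = 0.00131; 0.332 without the block), 1.33 in KO1 (0.000443; 0.247) and 1.29 in KO2 (0.000442; 0.252). MET, which encodes the receptor of hepatocyte growth factor, differed by -0.39, -0.76 and -0.44 and passed only in KO1 with the block (adjusted p = 0.00815; 0.0854 in control and 0.0651 in KO2). CAPZA2 and ST7 differed by -0.24 to 0.18 and were called in no line. With the block, 16.1% (control), 13.9% (KO1) and 12.7% (KO2) of tested genes rose, and 16.4%, 13.8% and 14.4% fell. MET was below its vehicle partner in all 6 suffix pairs (54.1% to 86.6% of the vehicle level), as were 23.8% of tested genes. The opposite-strand gene inside CAV1 (AC006159.5) had at most 5 reads in a library, and those overlapping CAV2 at most 27, against at least 1615 for CAV1 and 655 for CAV2.

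**Figure D4:**
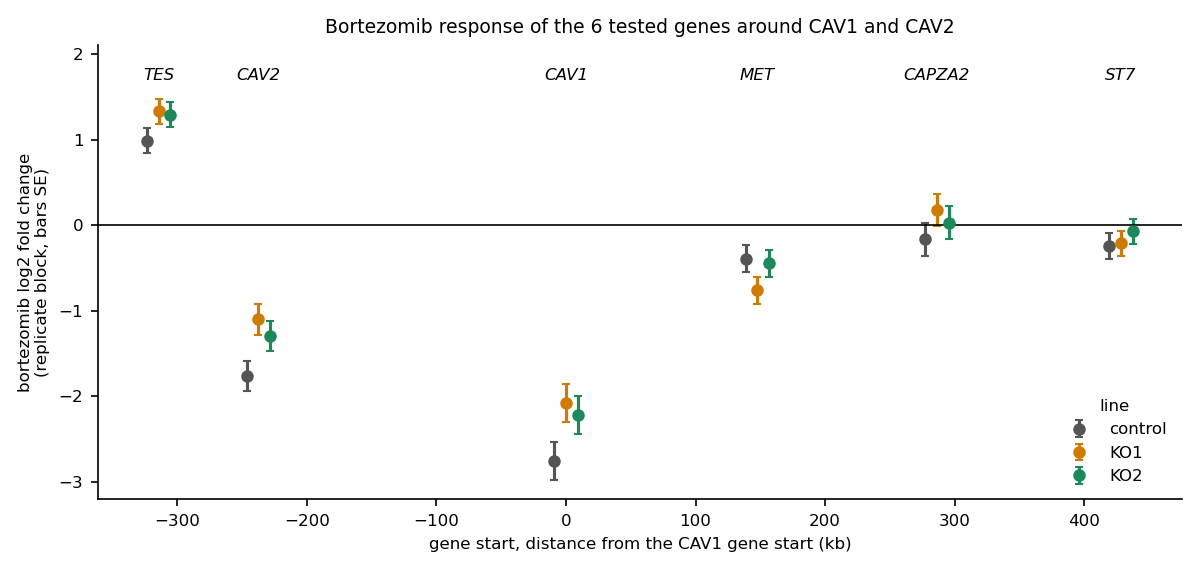
Bortezomib log2 fold change with the replicate block (bars are SE) for the 6 tested genes within 500 kb of CAV1 or CAV2, placed by the distance of the gene start from that of CAV1 in kb. TES is above 0 in all 3 lines (0.99 to 1.33), CAV2 and CAV1 are below 0, and CAPZA2 and ST7 lie between -0.24 and 0.18.

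As a description of likeness, Pearson's r of log2(FPKM + 1) was taken over the 12 libraries, which share treatment and suffix. The genes most like CAV1 were CLIC1 (r = 0.991), MUT (0.979), KIFC1 (0.977), MKI67 (0.972) and DEPDC1 (0.971). For CAV2 they were DDX23 (0.977), CTD-2510F5.4 (0.9748), ANLN (0.974), RP11-27I1.4 (0.967) and CAV1 itself (0.959). PTRF was most like TUBB (0.988), EHD2 most like UGDH (0.981), and PACSIN2 most like STRN3 (0.982), with the proteasome subunit gene PSMB2 also among its 5 most alike (0.979). After the mean of each suffix class was subtracted, r of CAV1 was 0.970 with CAV2, 0.907 with PTRF, 0.719 with EHD2 and -0.811 with PACSIN2, compared with 0.959, 0.540, 0.528 and -0.477 as deposited. In likeness to CAV1 after this step, CAV2 ranked 44, PTRF 502, EHD2 2130 and PACSIN2 10614 among the 12194 tested genes. The bortezomib difference that chose CAV1 stays in this measure, so nothing about the coat is read from these values. CLIC1 remained the gene most like CAV1 (0.992). In that measure CAV2 was followed most closely by CTD-2510F5.4 (0.980), PTRF by C6orf226 (0.987), EHD2 by PRR12 (0.969) and PACSIN2 by EPHB3 (0.969).

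The rest of the coat families was read from a list of 9 further genes, of which 6 were tested. None was called without the block, where at most 0.467% of tested genes were called in any contrast. SDPR (cavin 2) had 7.07 and 2.80 FPKM in control vehicle libraries and 1.32 and 0.79 FPKM with bortezomib, and with the block it fell by 1.44 in control cells (limma adjusted p = 0.00831) and by 1.09 in KO2 (0.031). In KO1 it differed by -0.74 and did not pass. PACSIN3 rose in KO1 (0.69, adjusted p = 0.0211) and EHD4 in KO2 (0.60, 0.0332). PRKCDBP (cavin 3) was above the control level in both suffix pairs of all 4 knockout contrasts, at 381% and 201% of control in KO1 and 263% and 266% in KO2 with vehicle, and at 287% and 407% in KO1 and 184% and 408% in KO2 with bortezomib. With the suffix block it was called in KO1 with bortezomib (1.16, limma adjusted p = 0.0345) and not in KO1 vehicle (1.03, 0.0567), KO2 vehicle (0.94, 0.0893) or KO2 with bortezomib (0.88, 0.106). The suffix block called 5.95% and 4.91% of tested genes in vehicle and 7.54% and 4.81% with bortezomib, KO1 then KO2. With the unnumbered libraries treated as R1, PRKCDBP was called in all 4 (adjusted p = 0.0146 and 0.0292 in vehicle and 0.00668 and 0.031 with bortezomib, KO1 then KO2). In the same order, that fit called 971, 596, 1565 and 789 of 12194 tested genes in either direction. CAV3, MURC (cavin 4) and PACSIN1 were under the filter; CAV3 and MURC are known as the muscle members and PACSIN1 as the neuronal member of their families. The median bortezomib difference of the 6 was -0.14 in control cells, -0.07 in KO1 and -0.25 in KO2. Of all tested genes, 16.4%, 13.8% and 14.4% fell and 16.1%, 13.9% and 12.7% rose with the block in control, KO1 and KO2. With 6 genes nothing is read from these calls.

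Clathrin coat and adaptor genes, which serve the other main coated route into the cell, gave a comparison. Of 17 listed genes 16 were tested, and 0 were called without the block, where at most 0.467% of tested genes were called in any contrast. With it, SNX9 (0.91, limma adjusted p = 0.00673) and CLTB, a clathrin light chain (0.82, 0.00246), rose and EPN2 (-0.51, 0.0409) fell in control cells. In KO1 the other light chain CLTA rose (0.80, adjusted p = 0.0237) and AP2B1 (-0.82, 0.00707) and EPN2 (-0.66, 0.0182) fell. In KO2 AP2B1 (-0.64, 0.0207) and EPN2 (-0.50, 0.0497) fell. The median bortezomib difference of the 16 was 0.11, 0.08 and -0.04 in control, KO1 and KO2. With the block, 16.4%, 13.8% and 14.4% of all tested genes fell and 16.1%, 13.9% and 12.7% rose in control, KO1 and KO2. Nothing is read from the calls among the 16. Whether the caveolar and clathrin genes differ as sets was not tested.

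**Figure D5:**
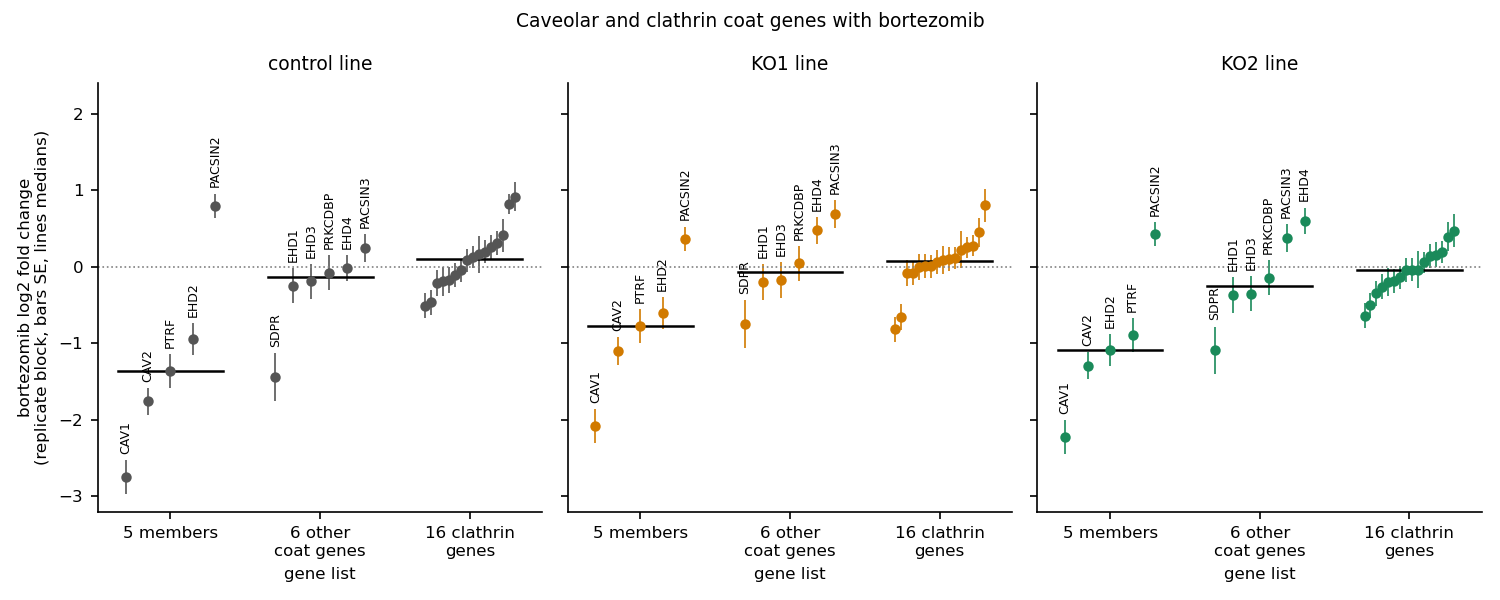
Bortezomib log2 fold change with the replicate block (bars are SE, black lines medians) for the 5 coat genes, 6 other members of their families and 16 clathrin genes in each line. CAV1, CAV2, PTRF and EHD2 lie lower than the 16 clathrin genes in control cells (-0.51 to 0.91) and in KO2 (-0.64 to 0.47), but in KO1 PTRF (-0.77) and EHD2 (-0.60) lie within the clathrin range (-0.82 to 0.80).

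Among 12 genes of the caveolar neck, of scission and of membrane rafts, 10 were tested. Of these, 0 were called without the block, where at most 0.467% of tested genes were called in any contrast. FLOT2, a flotillin that marks rafts without caveolin, fell in all 3 lines with the block (-0.86, -0.97 and -1.10, limma adjusted p = 0.00515, 0.00378 and 0.00213). In control cells FLOT1 also fell (-0.56, adjusted p = 0.0161) and DNM1, a dynamin that cuts membrane necks, rose (0.76, 0.0374). In all, 3 of the 10 fell and 2 rose in control cells, 2 fell in KO1 and 1 fell in KO2, with median differences of 0.01, -0.13 and -0.20. Between lines, 1 of the 10 was called lower with the block in KO1 against control with bortezomib, and none in the other contrasts. There 7.54% of tested genes were called in either direction, and ROR1 was lowest of the list at -1.12. With unnumbered libraries treated as R1 the count was 2, where 1565 of 12194 tested genes were called in either direction. Of all tested genes 16.4% fell and 16.1% rose in control cells, 13.8% fell in KO1 and 14.4% fell in KO2 with the block, and with 10 genes nothing is read from these counts.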

How the data were processed

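The deposited table holds the authors' FPKM for 12 libraries with gene lengths and positions. Per the submitters' processing notes, CASAVA, STAR 2.5, HTSeq 0.6.1, DESeq2 and hg19 were used, without role or order. All 58676 gene IDs were nevertheless in GENCODE 29 (GRCh38), 95.2% at the same position, all 5 coat genes among them, so positions are given as GRCh38. Whether counting used strand is not given in the sources used here.

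FPKM times length gave whole reads for 100% of values (tolerance 0.05), which gave the depth. Counting error was at most 3.91% for the 5 genes, and intervals cover the spread between libraries only. R 4.3.3 with limma 3.58.1 fitted group means on log2(FPKM + 1) to all 12 libraries at once (lmFit, then contrasts.fit and eBayes with a trend), for the 20.8% of genes whose mean FPKM reached 1, with Benjamini-Hochberg adjustment over all 12194. Figures and descriptions used Python 3.11.15.

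Titles end in R1 or R2 in the knockout lines, and in R2 or no suffix in the control line. Differences between each R2 library and its R1 or unnumbered partner correlated across genes in all 15 pairs of groups (r 0.696 to 0.89, median 0.811). The suffix was therefore taken to pair libraries, and the replicate block is printed beside results whose call it changes. In that block unnumbered libraries form a level of their own, so only R2 links the control line to the knockout lines. Putting them on the level of R1 was an alternative, and it changed some knockout calls. Nothing says that the 2 libraries of a group came from separate cultures, so p-values measure only the spread between these libraries, which may be technical. An exact two-sided test of 2 against 2 cannot go under 0.333 and was not used. On data simulated for bortezomib in control cells, 200 of 12194 genes were changed 2-fold: 0 were recovered without the block, 166 with it, with 7 false calls. The simulated suffix difference of a gene was the same in every group, as the block assumes. The simulation therefore cannot show which fit suits the real libraries, where this difference varied between groups.

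The members and gene lists were chosen with earlier results of these data known. Genes named are the 5 members and NFE2L1, from each list up to 4 genes per comparison called with the replicate block and largest in change plus its extremes, the 5 genes most like a member, and tested neighbours within 500 kb. Alternatives tried were the block, the pseudocount, the filter, scaling, leaving out mitochondrial genes, voom on recovered reads, each library left out and each suffix class alone.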

Additional observations from a re-analysis of the deposited data

Results flagged for a closer look

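EHD2 stood out because the knockout lines went opposite ways from control in vehicle in both suffix pairs. On the log2(FPKM + 1) scale KO1 differed from control by -0.399 (R1 against the unnumbered control) and -0.284 (R2), and KO2 by 0.143 and 0.919. The difference between KO1 and KO2 was -0.87, with a limma adjusted p of 1 without the replicate block and 0.0613 with it.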

How the results depend on the processing

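The replicate block changed most: it raised the number of genes called for bortezomib from 57 to 3952 in control cells, 29 to 3378 in KO1 and 39 to 3297 in KO2. For the knockout contrasts the block gave 725 (KO1, vehicle), 599 (KO2, vehicle), 920 (KO1, bortezomib), 586 (KO2, bortezomib) and 366 genes (KO1 against KO2). In that order of 8 contrasts, a block that treats unnumbered libraries as R1 gave 3968, 3403, 3291, 971, 596, 1565, 789 and 303. With the block, a pseudocount of 0.1 gave 3942, 3321, 3202, 711, 525, 864, 518 and 329, quantile normalization 4146, 3671, 3584, 847, 592, 1107, 648 and 323, and voom 4961, 4286, 4375, 1462, 1173, 1770, 1251 and 786, with 142 in the interaction, where the other fits with a block called 0. Without a block, testing all genes gave 124, 64, 96, 55, 52, 96, 66 and 42 and 7 in the interaction. For bortezomib in control, KO1 and KO2, a common FPKM sum gave 11, 12 and 24, quantile normalization 142, 57 and 112, leaving out mitochondrial genes 114, 49 and 83, and voom 178, 81 and 127. KO1 against control in vehicle gave 12 with a mean FPKM of at least 5. KO2 against control in vehicle gave 9 (pseudocount 0.1), 6 (mean of at least 5), 16 (quantile) and 12 (voom). KO2 against control in bortezomib gave 5 (quantile), 5 (no mitochondrial genes) and 3 (voom), and KO1 against KO2 gave 5 (pseudocount 0.1), 5 (mean of at least 5) and 1 (voom). Leaving out 1 library at a time without a block, the counts ranged from 4 to 8 (bortezomib in control), 5 to 6 (KO1) and 5 to 7 (KO2), and from 4 to 10, 2 to 6, 3 to 4, 0 to 2 and 1 to 5 in the 5 knockout contrasts, with 0 in the interaction; there the remaining library was assumed to vary like the other groups.

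Over the 14 other settings the bortezomib differences of the 5 genes kept their direction in all 3 lines. CAV2 in control cells passed without a block after quantile normalization (adjusted p = 0.0422), without mitochondrial genes (0.0438) and in voom (0.0303). Knockout differences changed direction: CAV2 in KO1 vehicle was -0.21 with the block, -0.23 with the block and a pseudocount of 0.1, -0.089 with the block after quantile normalization, -0.022 in voom and -0.30 in voom with the block, against 0.05; EHD2 in KO1 vehicle was 0.024, 0.030 and 0.16 in the first 3 of these, against -0.34. In voom with the block CAV2 in KO2 vehicle was -0.085 and CAV1 in KO1 with bortezomib -0.0077. EHD2 in KO1 with bortezomib was -0.024 with a common sum, -0.021 after quantile normalization and -0.047 in voom, against 0.00. Each suffix class alone added further sign changes: over all 14 settings the differences ranged from -0.69 to 0.20 (CAV1, KO1 vehicle), -0.55 to 0.38 (CAV1, KO2 vehicle), -0.02 to 0.32 (PACSIN2, KO2 vehicle), -0.51 to 0.51 (EHD2, KO1 bortezomib), -0.12 to 0.90 (EHD2, KO2 bortezomib), -0.11 to 0.55 (PTRF, KO2 bortezomib), -0.45 to 0.02 (PACSIN2, KO2 bortezomib), -0.39 to 0.15 (PTRF, KO1 against KO2) and -0.18 to 0.39 (EHD2, interaction). The cause was not tested.

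With 1 library left out and no block, CAV1 and CAV2 kept their direction for bortezomib. In KO1 without the vehicle R1 library PTRF and EHD2 changed direction, with ranges of -1.83 to 0.28 and -1.35 to 0.14, and without vehicle R2 PACSIN2 did (-0.20 to 0.94). In these fits the library left alone in its group is set against the mean of both libraries of the other group, so the suffix classes are unbalanced. Knockout ranges that crossed 0 in vehicle were, for KO1, -0.62 to 0.17 (CAV1), -0.16 to 0.26 (CAV2), -1.42 to 0.69 (PTRF), -1.14 to 0.46 (EHD2) and -0.76 to 0.39 (PACSIN2), and, for KO2, -0.42 to 0.36 (CAV1), -1.03 to 0.54 (PTRF), -0.27 to 1.33 (EHD2) and -0.39 to 0.69 (PACSIN2). With bortezomib they were -0.67 to 1.12 (PTRF, KO1), -0.83 to 0.83 (EHD2, KO1), -0.67 to 1.11 (PTRF, KO2), -0.44 to 1.23 (EHD2, KO2) and -0.76 to 0.33 (PACSIN2, KO2). KO1 against KO2 gave -1.17 to 0.94 (PTRF) and -0.91 to 0.23 (PACSIN2), and the interaction -0.37 to 1.42 (PTRF), -0.73 to 0.94 (EHD2) and -0.95 to 0.14 (PACSIN2).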

Other observations

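Of 13 receptors and receptor-bound proteins known in caveolae, 10 were tested. Of these, 0 were called without the replicate block, where at most 0.467% of tested genes were called in any contrast. With the block TGFBR2, the type II receptor of TGF-beta, was lower after bortezomib, with log2 differences of -1.752 in control cells (limma adjusted p = 0.000353), -1.66 in KO1 (0.000573) and -1.49 in KO2 (0.000871). It ranged from 10.2 to 104 FPKM over the 12 libraries. TGFBR1, the type I receptor, fell in control cells (-0.51, adjusted p = 0.0325), where INSR, the insulin receptor, rose (0.45, 0.0375). LRP6, a Wnt co-receptor, fell in KO1 (-0.83, adjusted p = 0.0158) and KO2 (-0.73, 0.0283). IGF1R was lower in KO1 than in control cells with vehicle (-1.03, adjusted p = 0.0186) and with bortezomib (-1.01, 0.0188), and TGFBR2 was higher in KO2 than in control cells with bortezomib (1.10, 0.0271). EGFR (34.6 to 86.4 FPKM) and ITGB1 (464 to 1186 FPKM) were called in no bortezomib contrast. With the block, bortezomib lowered 16.4%, 13.8% and 14.4% of all tested genes and raised 16.1%, 13.9% and 12.7% in control, KO1 and KO2. Against control, 5.95% (KO1, vehicle), 7.54% (KO1, bortezomib) and 4.81% (KO2, bortezomib) were called in either direction. With 10 genes nothing is read from these calls.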
